A study of Homo sapiens with 22 samples.

Results

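The expression of 10 genes of the transforming growth factor-beta (TGF-beta) pathway was followed in MDA-MB-231 cells treated with 2 ligands of the glucocorticoid receptor. The genes were chosen by name: the ligands TGFB1 and TGFB2, the receptors TGFBR1 and TGFBR2, the signal carrier SMAD3, the inhibitors SMAD7 and SKIL, and the inhibitor of DNA binding genes ID1, ID2 and ID3. All 10 were among the 20668 gene symbols with an RPKM value (read counts scaled for transcript length and library size) in every RNA sample. Genes were tested where 2 or more samples reached an RPKM of 0.5, which kept 12713 genes and 9 of the 10, all but ID2. MDA-MB-231 is a triple-negative breast cancer (TNBC) line with mutant p53. All samples came from this line, held in phenol red-free medium with charcoal-stripped serum before treatment. The study asked whether dexamethasone (Dex), a synthetic glucocorticoid, and Compound A (CpdA), a non-steroidal ligand of the same receptor, regulate like or unlike genes. The 5 groups were vehicle, 100 nM Dex for 2 h, 100 nM Dex for 4 h, 10 μM CpdA for 2 h and 10 μM CpdA for 4 h, with 2 biological replicates each. No time is labelled for vehicle. The deposited names of its samples carry 2 h and 4 h, so that time under vehicle and the spread between its replicates cannot be told apart.

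TGF-beta ligands bind a complex of the type II receptor TGFBR2 and the type I receptor TGFBR1, whose kinases phosphorylate SMAD2 and SMAD3. These enter the nucleus with SMAD4 to regulate transcription. SMAD7 blocks the type I receptor and brings ubiquitin ligases to it, whereas SKIL (SnoN) holds SMAD complexes in a repressed state on DNA. Both genes are themselves induced by the pathway and close a negative feedback loop. ID proteins pair with basic helix-loop-helix factors and keep them from binding DNA, and their genes respond to TGF-beta and bone morphogenetic protein (BMP) signals. In breast cancer the pathway is known for growth arrest in early lesions and for invasion and metastasis in late ones.

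The depth of each library relative to vehicle replicate 1, read from the RPKM that 1 read is worth, ranged from 1.0 to 1.21, and both vehicle libraries were shallower than every treated library. Spearman correlations between duplicates ran from 0.985 to 0.987. The cells carried the markers of the line, with mean vehicle levels of 1451 RPKM for VIM and 171 RPKM for CD44, against 0 for ESR1, 0.000748 for PGR and 0.374 for CDH1, although ERBB2 was at 18.2 and EPCAM at 9.37 RPKM. NR3C1, which encodes the glucocorticoid receptor, was at 21.6 RPKM with vehicle. TSC22D3, a glucocorticoid target used to check the treatment, was at 9.79 and 8.22 RPKM with vehicle, 304 and 302 RPKM after Dex for 2 h and 12.4 and 12.1 RPKM after CpdA for 2 h.

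Differences are given on the log2(RPKM + 0.1) scale, on which folds of low genes are understated, with the standard error (SE) and the adjusted p of limma fitted to all 10 samples and adjusted over the 12713 genes. A gene was said to rise or fall when this adjusted p was under 0.05. By this rule TSC22D3 also rose after CpdA, by 0.44 at 2 h (adjusted p = 0.00918) and 0.27 at 4 h (adjusted p = 0.0299). Of the further check genes, PER1 rose after CpdA by 1.22 at 2 h (adjusted p = 0.00328) and 0.82 at 4 h (adjusted p = 0.00832). FKBP5 did not pass after CpdA for 2 h (-0.10, adjusted p = 0.466) and rose at 4 h (0.28, adjusted p = 0.0226). With 2 samples against 2, the smallest two-sided p an exact permutation test can give is 0.333, so that every call rests on the spread shared over genes and groups. The RNA came from whole cultures, in which a change in part of the cells and a change in all of them cannot be told apart.

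Dex changed SMAD7, SMAD3 and TGFBR2 at both times and TGFBR1 and ID1 at 4 h, and CpdA lowered SMAD3, TGFBR1 and TGFBR2 at both times and SMAD7 and SKIL at 4 h. After Dex for 2 h, 3 of the 9 genes tested were called (background 10.3% of all tested genes), 1 rise (background 4.49%) and 2 falls (background 5.82%). After Dex for 4 h, 5 of 9 were called (27.4%), 2 rises (9.26%) and 3 falls (18.2%). After CpdA for 2 h, 3 of 9 were called (6.18%), all of them falls (4.29%). After CpdA for 4 h, 6 of 9 were called (20.5%), 1 rise (6.76%) and 5 falls (13.8%). A fold change over 2 together with the call was reached by SMAD7 alone after Dex for 2 h (background 2.01%) and by SMAD3 and SMAD7 after Dex for 4 h (3.78%). It was reached by none of the 9 after CpdA at 2 h (0.488%) or 4 h (0.889%). The median difference of the 9 genes was -0.170 after Dex for 2 h, -0.110 after Dex for 4 h, -0.266 after CpdA for 2 h and -0.341 after CpdA for 4 h. The medians of all tested genes were -0.018, -0.052, -0.016 and -0.037. Without CpdA 4 h replicate 1 the count for CpdA at 4 h was 3, and without Dex 4 h replicate 1 or 2 the count for Dex at 2 h was 5. All 4 comparisons share the same vehicle samples.

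**Figure D1:**
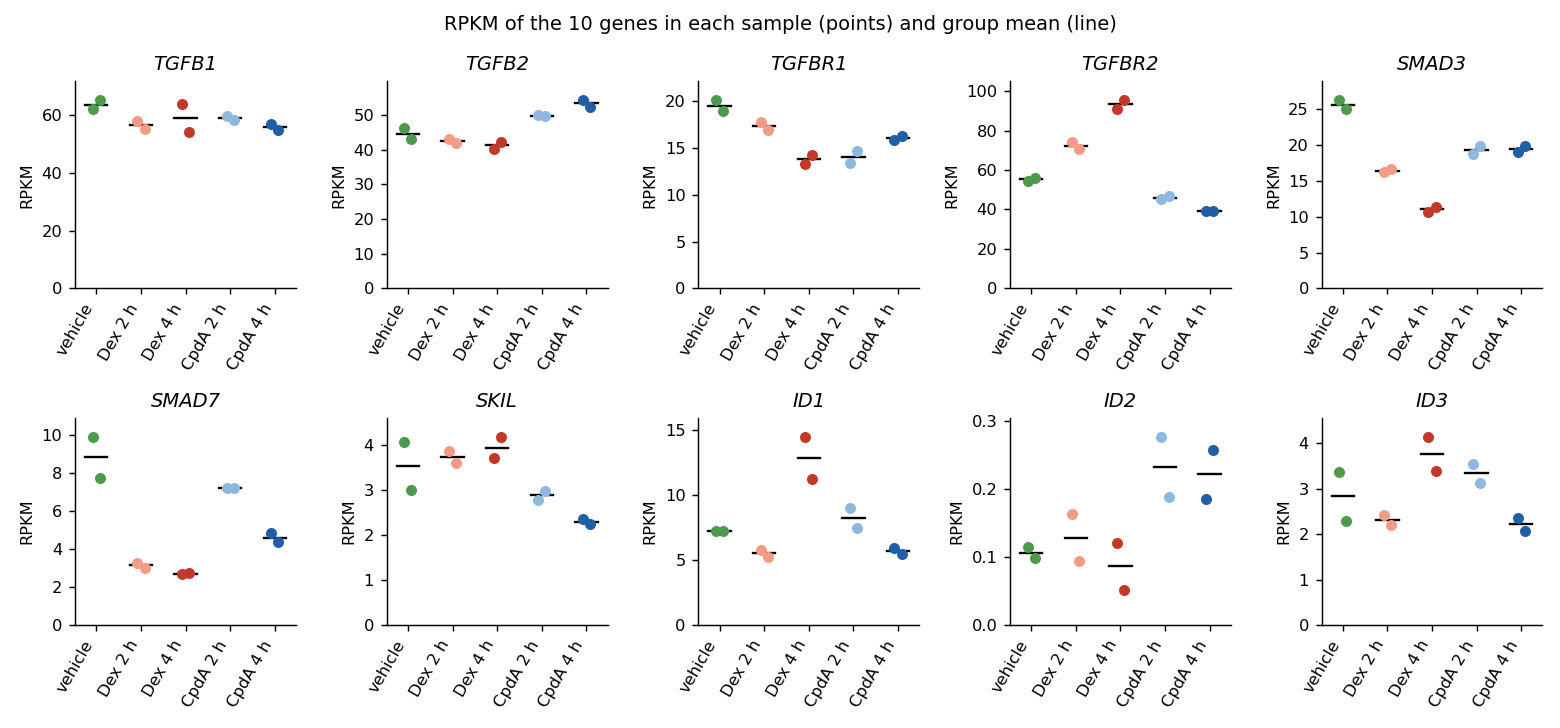
RPKM of each of the 10 genes (y axis, linear from 0) in each of the 10 samples (points, 2 per group), with the group mean as a line; the x axis gives the 5 groups. TGFBR2 spans 39.1 to 95.5 RPKM with Dex above vehicle and CpdA below it, SMAD7 drops from a vehicle mean of 8.81 to 2.70 RPKM after Dex for 4 h, and ID2 is at 0.278 RPKM or less in every sample.

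The ligand genes were among the more abundant of the 10. TGFB1 encodes the ligand most widely made in adult tissue, and its gene lies on chromosome 19 at 41807492 to 41859827 on the minus strand (GRCh37). TGFB1 was at 61.9 and 65.2 RPKM with vehicle, 57.8 and 55.2 after Dex for 2 h and 64.0 and 54.0 after Dex for 4 h. After CpdA it was at 59.6 and 58.4 RPKM at 2 h and at 56.9 and 54.9 RPKM at 4 h. Both vehicle samples were above 7 of the 8 treated ones, and Dex 4 h replicate 1 lay between them. The differences from vehicle were -0.17 (adjusted p = 0.209) and -0.11 (adjusted p = 0.29) for Dex at 2 h and 4 h and -0.11 (adjusted p = 0.455) and -0.18 (adjusted p = 0.105) for CpdA, each with an SE of 0.0718. The Dex 4 h replicates differed by 0.244, and the fit without replicate 1 of that group called TGFB1 lower after Dex for 4 h (-0.23, adjusted p = 0.00978, range 0.00978 to 0.898 over 21 alternatives). Without Dex 4 h replicate 1 or replicate 2, which widen the shared error, TGFB1 was also called lower after Dex for 2 h (adjusted p = 0.0269 and 0.0271, range 0.0269 to 0.623) and after CpdA for 4 h (adjusted p = 0.0109 and 0.011, range 0.0109 to 0.347).

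TGFB2, the ligand isoform that needs the co-receptor betaglycan for high-affinity binding, lies on chromosome 1 at 218518678 to 218617961 on the plus strand. TGFB2 was at 46.3 and 42.9 RPKM with vehicle, 43.0 and 42.0 after Dex for 2 h and 40.3 and 42.3 after Dex for 4 h. The CpdA samples were at 49.8 and 49.8 RPKM at 2 h and at 54.3 and 52.2 RPKM at 4 h. All 4 CpdA samples were above all vehicle and Dex samples. TGFB2 rose by 0.26 ± 0.0475 (SE) after CpdA for 4 h (adjusted p = 0.00544) but missed the threshold after CpdA for 2 h (0.16, adjusted p = 0.0883) and after Dex for 2 h (-0.07, adjusted p = 0.48) or 4 h (-0.11, adjusted p = 0.122). The rise at 4 h was lost without CpdA 4 h replicate 1 (0.23, adjusted p = 0.0602, range 0.00153 to 0.0602). The difference at 2 h passed without vehicle replicate 1 (0.21, adjusted p = 0.0367) or without Dex 4 h replicate 1 or 2 (adjusted p = 0.0474 and 0.0479, range 0.0367 to 0.416). Dex for 4 h passed as a fall without vehicle replicate 2 (-0.16, adjusted p = 0.0484, range 0.0484 to 0.56). Exons of TGFB2 share 701 bases with the antisense gene TGFB2-AS1, which was at 0.626 to 1.03 RPKM, and 1371 bases with TGFB2-OT1 on the same strand. The library kit is not stated to have kept the strand, so that reads of TGFB2 and TGFB2-AS1 in the shared bases cannot be told apart.

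The receptor genes went opposite ways after Dex for 4 h, and both fell after CpdA at both times. TGFBR2, the kinase that binds ligand first, lies on chromosome 3 at 30648093 to 30735634 on the plus strand. TGFBR2 was at 54.7 and 56.0 RPKM with vehicle, 74.0 and 70.7 after Dex for 2 h and 90.9 and 95.5 after Dex for 4 h. After CpdA it was at 45.4 and 46.6 RPKM at 2 h and at 39.4 and 39.1 RPKM at 4 h. No pair of groups overlapped, and in each ligand the 4 h samples were farther from vehicle than the 2 h samples. TGFBR2 rose 1.31-fold after Dex for 2 h (0.39 ± 0.0418 SE, adjusted p = 0.000282) and 1.68-fold after Dex for 4 h (0.75, adjusted p = 1.68e-06). After CpdA TGFBR2 fell, by 0.27 at 2 h (adjusted p = 0.00718) and by 0.50 at 4 h (adjusted p = 9.74e-05). Over the 21 alternatives the fall after CpdA for 2 h was lost without CpdA 2 h replicate 1 (adjusted p = 0.0893) or replicate 2 (adjusted p = 0.0539, range 0.003 to 0.0893), and the other 3 calls were kept in all of them.

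TGFBR1, the kinase that phosphorylates SMAD2 and SMAD3, lies on chromosome 9 at 101866320 to 101916474 on the plus strand. TGFBR1 was at 20.1 and 18.8 RPKM with vehicle, 17.7 and 16.9 after Dex for 2 h and 13.3 and 14.2 after Dex for 4 h. The CpdA samples were at 13.3 and 14.6 RPKM at 2 h and at 15.8 and 16.3 RPKM at 4 h. Every treated sample was below both vehicle samples, with the lowest values at 4 h for Dex and at 2 h for CpdA. TGFBR1 fell by 0.50 ± 0.0607 (SE) after Dex for 4 h (adjusted p = 0.000282), by 0.48 after CpdA for 2 h (adjusted p = 0.00234) and by 0.28 after CpdA for 4 h (adjusted p = 0.0121), and the difference after Dex for 2 h was -0.17 (adjusted p = 0.133). The fall after CpdA for 4 h was lost without vehicle replicate 1 (-0.23, adjusted p = 0.0707), CpdA 4 h replicate 1 (adjusted p = 0.0941) or CpdA 4 h replicate 2 (adjusted p = 0.055, range 0.00753 to 0.0941).

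SMAD3, the receptor-activated SMAD that binds DNA directly, lies on chromosome 15 at 67356101 to 67487511 on the plus strand. SMAD3 was at 26.2 and 24.9 RPKM with vehicle, 16.1 and 16.7 after Dex for 2 h and 10.7 and 11.3 after Dex for 4 h. After CpdA it was at 18.7 and 19.8 RPKM at 2 h and at 19.0 and 19.9 RPKM at 4 h. The vehicle samples were the highest of the 10 and the Dex 4 h samples the lowest, with no overlap between them and any other group. SMAD3 fell 1.56-fold after Dex for 2 h (-0.64 ± 0.0533 SE, adjusted p = 5.18e-05) and 2.31-fold after Dex for 4 h (-1.21, adjusted p = 3.79e-07). It also fell after CpdA, by 0.41 at 2 h (adjusted p = 0.00264) and by 0.39 at 4 h (adjusted p = 0.00106), and CpdA at 2 h and 4 h overlapped. These 4 calls were kept in all 21 alternatives, with differences of -1.25 to -1.14 for Dex at 4 h.

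SMAD7, the inhibitory SMAD, lies on chromosome 18 at 46446223 to 46477335 on the minus strand. SMAD7 was at 9.90 and 7.73 RPKM with vehicle, 3.26 and 3.01 after Dex for 2 h and 2.67 and 2.73 after Dex for 4 h. The CpdA samples were at 7.18 and 7.22 RPKM at 2 h and at 4.81 and 4.35 RPKM at 4 h. All Dex samples were below all CpdA samples, which were below both vehicle samples. SMAD7 fell 2.74-fold after Dex for 2 h (-1.45 ± 0.107 SE, adjusted p = 2.4e-05) and 3.16-fold after Dex for 4 h (-1.66, adjusted p = 4.4e-06), the largest differences among the 9 genes in these comparisons. Among all 12713 genes it ranked 56 from the lowest difference at 2 h and 67 at 4 h. After CpdA SMAD7 fell by 0.92 at 4 h (adjusted p = 0.000511), and at 2 h the difference was -0.28 (adjusted p = 0.182). The vehicle replicates differed by 0.354, and without vehicle replicate 2, the lower of them, the difference after CpdA for 2 h was -0.45 and passed (adjusted p = 0.0313, range 0.0313 to 0.527). The other 3 calls were kept in all 21 alternatives.

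SKIL, the SMAD corepressor, lies on chromosome 3 at 170075130 to 170114623 on the plus strand. SKIL was at 4.07 and 2.99 RPKM with vehicle, 3.88 and 3.61 after Dex for 2 h and 3.70 and 4.19 after Dex for 4 h. After CpdA it was at 2.78 and 2.99 RPKM at 2 h and at 2.36 and 2.24 RPKM at 4 h. The Dex samples lay within or just above the vehicle range, and the CpdA 4 h samples were the lowest of the 10. SKIL fell by 0.58 ± 0.130 (SE) after CpdA for 4 h (adjusted p = 0.0133), and the differences after Dex for 2 h (0.10, adjusted p = 0.756), Dex for 4 h (0.17, adjusted p = 0.385) and CpdA for 2 h (-0.27, adjusted p = 0.293) did not pass. The fall after CpdA for 4 h was lost without moderation of the variance (adjusted p = 0.0693). The vehicle replicates differed by 0.431. Without vehicle replicate 1 the fall was lost (-0.37, adjusted p = 0.0505) and SKIL was called higher after Dex for 4 h (0.38, adjusted p = 0.0321, range 0.0321 to 0.786). The fall was also lost without CpdA 4 h replicate 1 (adjusted p = 0.0625) or replicate 2 (adjusted p = 0.0874, range 0.00201 to 0.0874).

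Over the 10 samples the log2 values of SMAD3 and SMAD7 had a Pearson r of 0.872. The samples fall into 4 treatments and 1 vehicle group, so that r describes the treatment pattern and is not a test. Because these are the genes among the 10 with the largest falls after Dex for 4 h, the 250 bases before their transcription starts are given 5′ to 3′ from RefSeq (GRCh38.p14), with SMAD3 at chr15:67065352-67065601 on the plus strand and SMAD7 at chr18:48950966-48951215 on the minus strand. Capitals mark matches on either strand to the motifs searched. These were the SMAD sequence CAGAC, the GC-rich SMAD sequence GGCGCC, the AP-1 sequence TGANTCA, the cyclic AMP response core TGACG, the single glucocorticoid receptor sequence AGAACA and the palindromic glucocorticoid response element.
SMAD3: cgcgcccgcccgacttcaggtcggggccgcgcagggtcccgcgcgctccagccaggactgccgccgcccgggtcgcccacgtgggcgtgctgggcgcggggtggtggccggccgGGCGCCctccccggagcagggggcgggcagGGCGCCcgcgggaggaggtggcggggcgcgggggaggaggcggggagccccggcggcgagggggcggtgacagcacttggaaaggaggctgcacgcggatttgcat
SMAD7: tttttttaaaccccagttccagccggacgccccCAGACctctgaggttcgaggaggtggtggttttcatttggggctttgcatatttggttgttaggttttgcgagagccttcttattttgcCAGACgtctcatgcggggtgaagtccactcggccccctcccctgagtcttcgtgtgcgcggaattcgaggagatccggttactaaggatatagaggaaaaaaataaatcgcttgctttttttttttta
The SMAD3 window held 2 GGCGCC matches, a sequence found in 16.4% of 35093 promoter windows, and the SMAD7 window held 2 CAGAC matches, found in 38% of them. Neither window held AGAACA (12.4% of windows), TGANTCA (6.57%) or TGACG (21.2%). The palindromic element, whose letters are not printed here, was in none of the windows at the main starts of the 10 genes. The form searched matched only 1 of all 35093 windows (0.00285%), so that its absence here cannot set these genes apart from others. Whether other forms of the element lie in or near these genes was not tested. The paper places most Dex-responsive receptor binding locations outside promoters, where no motif was searched here. A match or its absence concerns only the letters searched in this window, and other RefSeq starts of SMAD3 and SMAD7 have windows of their own that are not printed.

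Of the ID genes, ID1 was called against vehicle, and ID2 and ID3 were not. ID1, which blocks E-protein dimers and is known from breast cancer metastasis, lies on chromosome 20 at 30193086 to 30194318 on the plus strand. ID1 was at 7.24 and 7.25 RPKM with vehicle, 5.81 and 5.25 after Dex for 2 h and 14.5 and 11.3 after Dex for 4 h. The CpdA samples were at 9.03 and 7.51 RPKM at 2 h and at 5.93 and 5.48 RPKM at 4 h. The Dex 4 h samples were the highest of the 10, and the Dex 2 h and CpdA 4 h samples were below vehicle and overlapped each other. ID1 rose 1.76-fold after Dex for 4 h (0.81 ± 0.123 SE, adjusted p = 0.00108), and this call was kept in all 21 alternatives, with differences of 0.63 to 0.99. The differences after Dex for 2 h (-0.38, adjusted p = 0.0928), CpdA for 2 h (0.18, adjusted p = 0.457) and CpdA for 4 h (-0.34, adjusted p = 0.0836) did not pass. Without Dex 4 h replicate 1 or 2, which were 0.362 apart, ID1 was called lower after Dex for 2 h (adjusted p = 0.0251 and 0.0252, range 0.0234 to 0.352) and after CpdA for 4 h (adjusted p = 0.0242 and 0.0243, range 0.0178 to 0.317).

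ID3, a close relative of ID1, lies on chromosome 1 at 23884417 to 23885992 on the minus strand. ID3 was at 3.37 and 2.28 RPKM with vehicle, 2.42 and 2.20 after Dex for 2 h and 4.14 and 3.38 after Dex for 4 h. After CpdA it was at 3.55 and 3.11 RPKM at 2 h and at 2.36 and 2.07 RPKM at 4 h. As for ID1, the means were highest after Dex for 4 h, then after CpdA for 2 h, and lowest after Dex for 2 h and CpdA for 4 h, but the vehicle samples spanned most of it, and only the Dex 4 h samples lay outside their range in full. No difference from vehicle passed: -0.26 (adjusted p = 0.466) and 0.42 (adjusted p = 0.108) for Dex at 2 h and 4 h and 0.25 (adjusted p = 0.466) and -0.32 (adjusted p = 0.238) for CpdA, each with an SE of 0.172. The vehicle replicates differed by 0.541. Without vehicle replicate 1, the higher of them, ID3 was called higher after Dex for 4 h (0.69, adjusted p = 0.0137, range 0.0137 to 0.531), and without vehicle replicate 2 it was called lower after CpdA for 4 h (-0.59, adjusted p = 0.032, range 0.032 to 0.878).

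ID2, on chromosome 2 at 8818975 to 8824591 on the plus strand, was at 0.114 and 0.0988 RPKM with vehicle, 0.164 and 0.0944 after Dex for 2 h and 0.122 and 0.0522 after Dex for 4 h. The CpdA samples were at 0.278 and 0.189 RPKM at 2 h and at 0.185 and 0.258 RPKM at 4 h. All 4 CpdA samples were above all 6 others. In the fit with no filter on low values the differences of ID2 were 0.68 (adjusted p = 0.255) and 0.63 (adjusted p = 0.178) for CpdA at 2 h and 4 h and 0.13 (adjusted p = 0.888) and -0.17 (adjusted p = 0.742) for Dex, and none passed. The unadjusted p from limma was 0.0302 and 0.0395 for CpdA at 2 h and 4 h.

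ID1 and ID3 had a Pearson r of 0.881 over the 10 samples, and ID1 was among the 3 genes closest to ID3 of all genes that passed the filter. Because the pair moved together, the 250 bases before their starts are given in the same way, with ID1 at chr20:31605039-31605288 on the plus strand and ID3 at chr1:23559502-23559751 on the minus strand (GRCh38.p14).
ID1: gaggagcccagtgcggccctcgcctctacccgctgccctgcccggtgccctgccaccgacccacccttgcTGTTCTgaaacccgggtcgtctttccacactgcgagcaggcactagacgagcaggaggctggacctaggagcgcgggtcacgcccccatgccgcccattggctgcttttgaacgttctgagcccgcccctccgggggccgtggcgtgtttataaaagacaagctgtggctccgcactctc
ID3: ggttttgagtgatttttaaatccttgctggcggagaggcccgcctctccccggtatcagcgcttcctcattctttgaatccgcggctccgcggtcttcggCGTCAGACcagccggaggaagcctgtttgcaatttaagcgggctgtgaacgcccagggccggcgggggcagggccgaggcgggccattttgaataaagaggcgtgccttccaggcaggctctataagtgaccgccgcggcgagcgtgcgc
The ID1 window held 1 match to the single glucocorticoid receptor sequence, on the minus strand of the window as printed, and none to the SMAD sequences. The ID3 window held 1 CAGAC match that overlaps a match to the reverse of TGACG, marked together as 1 run of capitals. No motif searched was found in both windows.

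**Figure D2:**
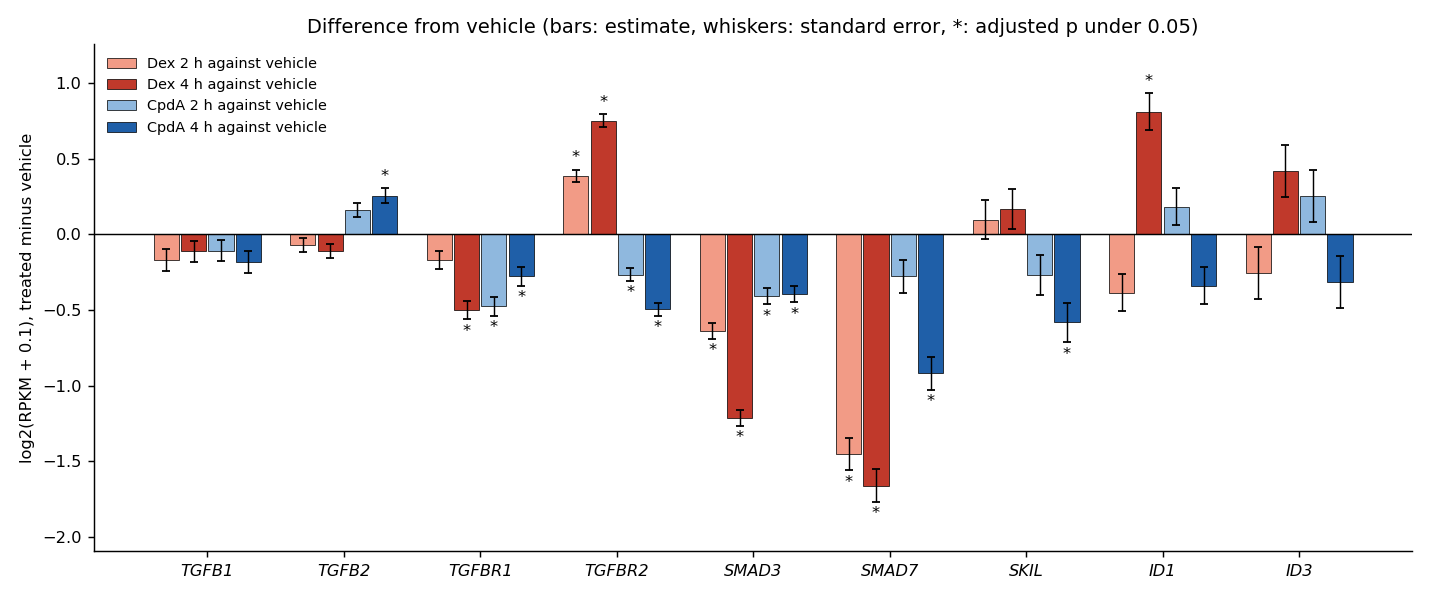
Difference from vehicle of the 9 genes that passed the filter (y axis, log2(RPKM + 0.1), treated minus vehicle; x axis, genes) for the 4 treatments (bars, with the standard error as whiskers and a star for an adjusted p under 0.05). SMAD7 (-1.66) and SMAD3 (-1.21) are lowest after Dex for 4 h, TGFBR2 is starred upward after Dex and downward after CpdA, and ID1 is starred after Dex for 4 h (0.81).

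The comparison of Dex with CpdA at the same time uses no vehicle sample, but the doses differ, 100 nM against 10 μM, so that it compares the treatments as given. At 2 h, 6 of the 9 genes were called (background 13.7%), 2 higher with Dex (background 7.53%) and 4 lower (background 6.18%). At 4 h, 8 of 9 were called (33.4%), 4 higher (15.4%) and 4 lower (18%), all but TGFB1 (0.07, adjusted p = 0.487). TGFBR2 was 1.57-fold higher with Dex at 2 h (0.65, adjusted p = 7.33e-06) and 2.37-fold higher at 4 h (1.25, adjusted p = 6.62e-08). SMAD7 was 2.26-fold lower with Dex at 2 h (-1.18, adjusted p = 7.81e-05) and 1.67-fold lower at 4 h (-0.74, adjusted p = 0.000674). SMAD3 was lower by 0.82 on the log2 scale at 4 h (-0.82, adjusted p = 4.01e-06) and by less at 2 h (-0.23, adjusted p = 0.0197). The receptor that binds ligand first was thus higher with Dex, and both SMAD genes were lower.

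TGFB2 was lower with Dex at 2 h (-0.23, adjusted p = 0.0113) and 4 h (-0.37, adjusted p = 0.000334). SKIL was 1.68-fold higher at 4 h (0.75, adjusted p = 0.00194) and did not pass at 2 h (0.36, adjusted p = 0.113). TGFBR1 was higher with Dex at 2 h (0.31, adjusted p = 0.00909) and lower at 4 h (-0.22, adjusted p = 0.0204). ID1 was lower with Dex at 2 h (-0.57, adjusted p = 0.014) and 2.22-fold higher at 4 h (1.15, adjusted p = 9.8e-05), and ID3 had the same signs (-0.51, adjusted p = 0.0945, and 0.73, adjusted p = 0.00979). The direction of the ligand difference thus turned between 2 h and 4 h for TGFBR1 and ID1, each called at both times in the main fit, though not in every alternative.

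Several of these calls were lost when 1 of the samples compared was left out, which sets 1 sample against 2. Such a loss cannot be told apart from the lower power of fewer samples. Over the 21 alternatives the differences at 2 h stayed at -0.27 to -0.19 for SMAD3 and -0.25 to -0.21 for TGFB2. They stayed at 0.24 to 0.37 for TGFBR1 and -0.70 to -0.44 for ID1. Some calls were also lost in fits that kept all 10 samples. ID1 at 2 h was lost without the filter (adjusted p = 0.0561) or without moderation of the variance (0.0942). Without moderation SMAD3 at 2 h (0.0584), TGFBR1 at 4 h (0.0585) and ID3 at 4 h (0.0607) were lost as well. The count at 2 h was 3 without CpdA 2 h replicate 1, Dex 2 h replicate 1 or Dex 2 h replicate 2. At 2 h SMAD3 was lost without CpdA 2 h replicate 2 (adjusted p = 0.174), Dex 2 h replicate 1 (0.144) or Dex 2 h replicate 2 (0.0693, range 0.00945 to 0.174). TGFB2 was lost without any of the 4 samples compared at 2 h (adjusted p = 0.0534 to 0.0858, range 0.00344 to 0.0858). TGFBR1 was lost without CpdA 2 h replicate 1 (0.0952) or Dex 2 h replicate 1 (0.0839, range 0.00599 to 0.0952), and ID1 was lost without CpdA 2 h replicate 1 (0.125) or Dex 2 h replicate 2 (0.104, range 0.00288 to 0.125). Conversely, without vehicle replicate 1 or 2, which enter only the shared error, SKIL (adjusted p = 0.0234 and 0.0228, range 0.013 to 0.418) and ID3 (0.0276 and 0.0269, range 0.00965 to 0.404) were called at 2 h. At 4 h TGFBR1 was lost without CpdA 4 h replicate 1 (adjusted p = 0.0646), CpdA 4 h replicate 2 (0.124) or Dex 4 h replicate 1 (0.0842, range 0.0145 to 0.124). ID3 was lost without CpdA 4 h replicate 2 (0.0735) or Dex 4 h replicate 1 (0.0559, range 0.00104 to 0.0735). TGFB1 was gained without Dex 4 h replicate 2 (0.0143, range 0.0143 to 0.78). TGFBR2 and SMAD7 at both times and ID1, SMAD3, TGFB2 and SKIL at 4 h kept their calls in all 21 alternatives.

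**Figure D3:**
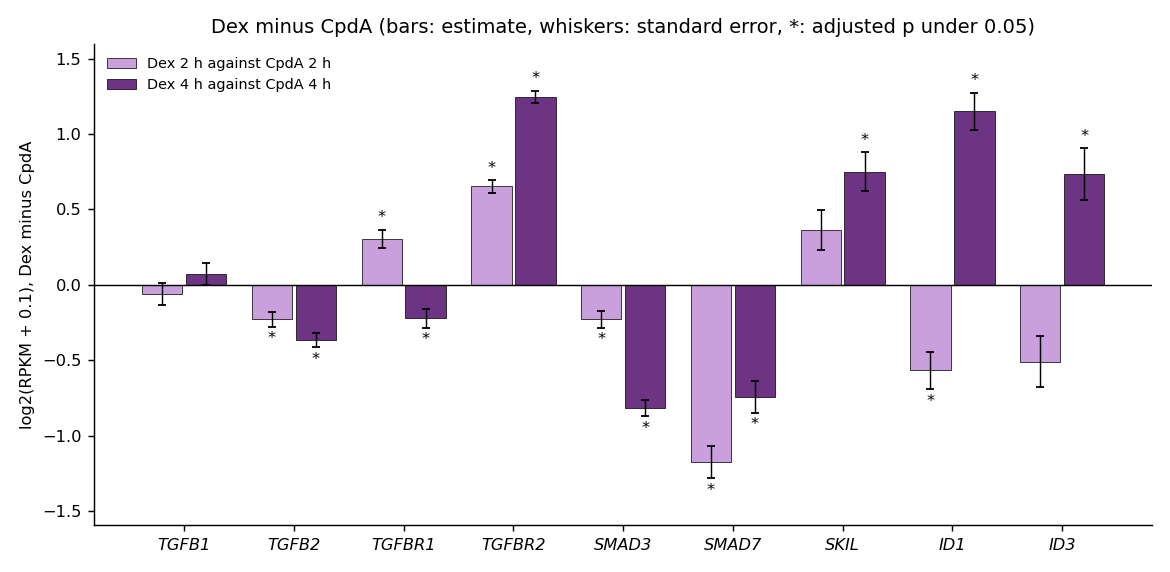
Dex minus CpdA for the 9 genes (y axis, log2(RPKM + 0.1); x axis, genes) at 2 h and 4 h (bars, with the standard error as whiskers and a star for an adjusted p under 0.05). TGFBR2 is above 0 at both times (0.65 and 1.25), SMAD7 is below 0 at both (-1.18 and -0.74), and ID1 turns from -0.57 to 1.15.

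Whether the difference between ligands itself changed between 2 h and 4 h was tested as an interaction, and 5 of the 9 genes passed (background 6.6% of all tested genes), 3 upward (background 3.04%) and 2 downward (background 3.56%). Dex minus CpdA shifted upward by 1.72 ± 0.174 (SE) for ID1 (adjusted p = 0.00114), by 1.24 ± 0.243 for ID3 (adjusted p = 0.019) and by 0.59 ± 0.0591 for TGFBR2 (adjusted p = 0.00114). The shift was downward for SMAD3 (-0.59 ± 0.0754, adjusted p = 0.00286) and TGFBR1 (-0.53 ± 0.0859, adjusted p = 0.00826). It did not pass for SMAD7 (0.43, adjusted p = 0.143), SKIL (0.39, adjusted p = 0.287), TGFB1 (0.13, adjusted p = 0.519) or TGFB2 (-0.14, adjusted p = 0.298). In fits of all 10 samples the ID3 shift was lost without the filter (adjusted p = 0.069) or without moderation of the variance (0.11). The TGFBR1 shift was lost without moderation (0.0548). The ID3 shift was lost without any 1 of the 8 ligand samples except Dex 4 h replicates 1 and 2 (adjusted p = 0.0532 to 0.0867, range 0.00342 to 0.11). SMAD7 was called without vehicle replicate 1 or 2 (adjusted p = 0.037 and 0.0361, range 0.0361 to 0.394) and TGFB1 without Dex 4 h replicate 2 (0.26, adjusted p = 0.0303, range 0.0303 to 0.945).

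Between 2 h and 4 h of Dex, 5 of the 9 genes changed (background 13.6%), 3 upward (background 4.55%) and 2 downward (background 9.02%). ID1 rose 2.29-fold (1.20, adjusted p = 0.000476), ID3 1.59-fold (0.67, adjusted p = 0.0339) and TGFBR2 1.29-fold (0.36, adjusted p = 0.00077). SMAD3 fell by 0.57 (adjusted p = 0.000328) and TGFBR1 by 0.33 (adjusted p = 0.00883), and SMAD7 at 2 h was already near its 4 h level (-0.21, adjusted p = 0.232). Even with all 10 samples the ID3 rise was lost without the abundance trend (adjusted p = 0.0554), the filter (0.0992) or moderation of the variance (0.13). The ID3 rise was lost without 1 of 7 samples, namely Dex 4 h replicate 1 (adjusted p = 0.138), Dex 2 h replicate 1 (0.113) or 2 (0.168) or any CpdA sample (0.053 to 0.0546, range 0.0057 to 0.168). Without Dex 2 h replicate 1 the count was 3. The TGFBR1 fall was lost without that sample (adjusted p = 0.0801, range 0.00695 to 0.0801), and TGFB1 was called higher without Dex 4 h replicate 2 (0.18, adjusted p = 0.0308, range 0.0308 to 0.911).

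Between 2 h and 4 h of CpdA, 3 of the 9 genes changed (background 12.4%), all downward (background 7.2%). SMAD7 fell by 0.64 (adjusted p = 0.0076), ID1 by 0.52 (adjusted p = 0.0259) and TGFBR2 by 0.23 (adjusted p = 0.00997). All 3 calls were lost in some of the fits that leave out 1 CpdA sample, which set 1 sample against 2. Such a loss cannot be told apart from the lower power of fewer samples. Over the 21 alternatives the differences stayed at -0.71 to -0.56 for SMAD7, -0.66 to -0.39 for ID1 and -0.25 to -0.20 for TGFBR2. Some calls were also lost with all 10 samples kept. ID1 was lost without the abundance trend (adjusted p = 0.0508), without the filter (0.081) or without moderation of the variance (0.114). SMAD7 was lost without moderation (0.054). TGFBR2 was lost without any 1 of the 4 CpdA samples (adjusted p = 0.0663 to 0.0931, range 0.00341 to 0.0931). The same was true of ID1 (adjusted p = 0.0559 to 0.187, range 0.00705 to 0.187), and SMAD7 was lost without CpdA 2 h replicate 1 (0.063), CpdA 2 h replicate 2 (0.0616) or CpdA 4 h replicate 2 (0.0702, range 0.00129 to 0.0702). Without a sample that is not in the comparison, ID3 (without any Dex 4 h or vehicle sample, adjusted p = 0.019 to 0.0456, range 0.00887 to 0.291), SKIL (without vehicle replicate 1 or 2, adjusted p = 0.0425 and 0.0416, range 0.0211 to 0.449) and TGFBR1 (upward, without Dex 4 h replicate 1 or 2, adjusted p = 0.0403 and 0.0406, range 0.0337 to 0.365) were called as well. For SMAD3 the difference was 0.01 (adjusted p = 0.904).

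For each gene the 3 genes most like it over the 10 samples were taken by Pearson r of the log2 values among the 12713 genes, as a description of the shared treatment pattern. The closest to TGFBR2 were TSPAN5 (0.996), POLG (0.996) and DSEL (0.993), and to SMAD3 FAM46C (0.991), G0S2 (0.991) and HTR7 (0.988). The closest to SMAD7 was MORC3 (0.985), to TGFB2 RBM23 (0.990), to TGFBR1 SRFBP1 (0.960) and to SKIL PEX13 (0.969). The same gene, TMEM9B-AS1, was closest to both ID1 (0.932) and ID3 (0.926), and the lowest top value was that of TGFB1, with PUSL1 (0.923). Among the 10 genes themselves TGFBR2 ran with SKIL (0.857) and against TGFB2 (-0.924) and SMAD3 (-0.729).

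Of 78 other genes of the pathway, 77 were listed and 64 passed the filter. After Dex for 2 h, 21 of the 64 were called, 6 higher and 15 lower. After Dex for 4 h, 29 were called, 9 higher and 20 lower. After CpdA for 2 h, 18 were called, 7 higher and 11 lower. After CpdA for 4 h, 27 were called, 9 higher and 18 lower. The background share of rises after CpdA for 2 h was 1.89%, and the other background shares are those given above for each comparison. Without Dex 2 h replicate 1 the count for Dex at 2 h was 12, without CpdA 2 h replicate 1 or 2 that for CpdA at 2 h was 9 or 8, and without CpdA 4 h replicate 1 that for CpdA at 4 h was 13. The median over the 64 genes was -0.035, -0.101, -0.022 and -0.113 in these 4 comparisons. Falls outnumbered rises in all 4, as they did among all tested genes. Those gave 740 falls and 571 rises after Dex for 2 h and 2310 and 1177 after Dex for 4 h. After CpdA they gave 546 and 240 at 2 h and 1749 and 860 at 4 h. Outside Dex for 2 h, whose rescaled counts are not given here, this split depends on the scaling. With each sample scaled to the same median, all tested genes gave 1604 falls and 1600 rises after Dex for 4 h, 367 and 295 after CpdA for 2 h and 1098 and 1386 after CpdA for 4 h. The 64 genes then gave 18 falls and 12 rises, 8 and 8, and 14 and 10.

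Among ligands and latency factors, which release or store TGF-beta outside the cell, 3 of 8 tested genes were called after Dex for 4 h (background 27.4%). These were LTBP1, upward, and the ligand gene TGFB3 (-0.66) and LTBP2 (-0.39), downward. TGFB3 was near the filter limit, at 0.570 and 0.484 RPKM with vehicle and 0.288 and 0.304 RPKM after Dex for 4 h. LTBP1, a latency binding protein, rose from 6.14 and 5.91 RPKM with vehicle to 8.45 and 11.2 RPKM (0.68, adjusted p = 0.00269). Of 4 other SMADs tested, 0 were called after Dex at 2 h (background 10.3%) or 4 h (27.4%). After CpdA, 1 was called lower at 2 h (4.29%), and at 4 h 1 was called higher (6.76%) and 1 lower (13.8%). Of 7 other receptors and co-receptors, 0 were called after Dex for 2 h and 2, BMPR2 and ACVR1, both lower, after Dex for 4 h, a share of 28.6% against the background of 27.4%. After CpdA, 1 of the 7 was called lower at each time (background 4.29% at 2 h and 13.8% at 4 h). Lists this short say little beside these backgrounds. SMAD4, the common partner of SMAD3, named here after its values were seen, was at 6.12 and 6.04 RPKM with vehicle, at 6.35 and 6.54 RPKM after Dex for 4 h, and did not pass (0.08). Among activins, BMPs and GDF15, 3 of 5 fell after Dex at both times (background 5.82% at 2 h and 18.2% at 4 h), namely INHBA, BMP4 and GDF15. BMP4, a BMP ligand, was at 116 and 136 RPKM with vehicle and 41.9 and 38.4 RPKM after Dex for 2 h (-1.64, adjusted p = 3.48e-06). It was at 67.1 and 59.7 RPKM after Dex for 4 h. After CpdA BMP4 was also below vehicle, at 98.5 and 87.9 RPKM at 2 h and at 73.8 and 71.4 RPKM at 4 h. GDF15, a stress-induced member of the superfamily, rose after CpdA for 2 h (0.75, adjusted p = 0.0023), and BMP2 fell after CpdA for 4 h (-0.95, adjusted p = 0.000808).

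Inhibitors and modulators other than SMAD7 and SKIL were called in 9 of 18 cases after Dex for 4 h (background 27.4%). Of these, 3 were higher (9.26%) and 6 lower (18.2%). After CpdA for 4 h, 8 of 18 were called (20.5%), 2 higher (6.76%) and 6 lower (13.8%). SMURF2, a ubiquitin ligase that SMAD7 brings to the receptor, was at 94.9 and 87.2 RPKM with vehicle, 47.9 and 46.7 after Dex for 2 h, 27.6 and 30.0 after Dex for 4 h and 63.7 and 63.0 after CpdA for 2 h. It fell by 0.94 (adjusted p = 4.69e-06) and 1.66 (adjusted p = 6.76e-08) after Dex for 2 h and 4 h and by 0.90 after CpdA for 4 h (adjusted p = 1.86e-05). NOG (noggin), an extracellular BMP antagonist, was at 57.1 and 59.0 RPKM with vehicle and 19.3 and 18.4 after Dex for 4 h. It fell by 0.77 and 1.62 after Dex for 2 h and 4 h (adjusted p = 6.24e-06 and 2.85e-08) and by 1.28 after CpdA for 4 h (adjusted p = 9.17e-07). At 4 h SMURF2 and NOG were thus lower than with vehicle after either ligand, as was SMAD7.

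Follistatin genes, whose products bind activins, parted by ligand. FST was at 39.8 and 40.0 RPKM with vehicle and 15.6 and 13.9 after Dex for 4 h (-1.43, adjusted p = 5.26e-07), whereas it rose after CpdA for 2 h (0.76, adjusted p = 0.000364) and 4 h (0.84, adjusted p = 7.98e-05). FSTL3 was at 33.8 and 35.9 RPKM with vehicle and 98.3 and 80.6 after Dex for 4 h (1.35, adjusted p = 8.49e-06). TGIF1, a SMAD corepressor, rose after CpdA for 4 h (0.80, adjusted p = 3.06e-05). PMEPA1, a SMAD-binding membrane protein, fell after CpdA for 2 h (-0.62, adjusted p = 0.0186), a call kept in 16 of 21 alternatives. It was lost without the filter (adjusted p = 0.076) or without moderation of the variance (0.121). It was also lost without vehicle replicate 2 (difference -0.48), CpdA 2 h replicate 1 (-0.66) or CpdA 2 h replicate 2 (-0.59).

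Known TGF-beta target genes moved both ways. Of 20 tested, 4 rose (background 4.49% of all tested genes) and 6 fell (5.82%) after Dex for 2 h. After Dex for 4 h, 4 rose (9.26%) and 7 fell (18.2%). After CpdA, 5 rose (1.89%) and 3 fell (4.29%) at 2 h, and 5 rose (6.76%) and 6 fell (13.8%) at 4 h. CDKN1A, which encodes the cell cycle inhibitor p21, rose after Dex for 2 h (1.65, adjusted p = 1.12e-06) and 4 h (1.39, adjusted p = 1.66e-06) and after CpdA for 2 h (0.63, adjusted p = 0.00186) and 4 h (0.72, adjusted p = 0.000346). SNAI2, a transcription factor of epithelial-mesenchymal transition, rose after Dex for 2 h (0.98, adjusted p = 1.52e-05) and 4 h (1.18, adjusted p = 2.07e-06). Its relative SNAI1 rose after CpdA for 2 h (1.07, adjusted p = 0.00302) and 4 h (1.12, adjusted p = 0.000806). Several of these genes are also known glucocorticoid, stress or growth factor targets, and which signal moved them was not tested.

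IL11, a cytokine induced by TGF-beta in breast cancer cells, had the widest span among the targets named. IL11 was at 10.2 and 7.80 RPKM with vehicle, 1.94 and 1.98 after Dex for 2 h, 1.06 and 1.09 after Dex for 4 h and 31.3 and 31.4 after CpdA for 2 h. It fell by 2.13 (adjusted p = 1.48e-06) and 2.95 (adjusted p = 1.06e-07) after Dex for 2 h and 4 h and rose by 1.80 (adjusted p = 2.27e-05) and 1.79 (adjusted p = 1.46e-05) after CpdA. The Dex, vehicle and CpdA samples of IL11 did not overlap.

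PDGFB and CTGF, a growth factor and a matricellular protein, stood out for the spread of their vehicle values. PDGFB was at 7.19 and 2.11 RPKM with vehicle and fell after Dex for 4 h (-2.11, adjusted p = 0.00577) and CpdA for 4 h (-2.88, adjusted p = 0.00175), with differences of -2.97 (without vehicle replicate 2) to -1.25 (without vehicle replicate 1) for Dex over 20 alternatives. The Dex call was lost without moderation of the variance (adjusted p = 0.0546, range 1.08e-05 to 0.0546), and the CpdA call was kept in all 20, with differences of -3.74 to -1.80. CTGF was at 466 and 244 RPKM with vehicle, 177 and 153 after Dex for 4 h and 175 and 166 after CpdA for 4 h. At 4 h it was thus below vehicle after either ligand. CTGF fell after CpdA for 4 h (-0.98, adjusted p = 0.0168), a call lost in 5 of 21 alternatives. These were without CpdA 4 h replicate 1 (adjusted p = 0.076) or 2 (0.0931), without the filter (0.0673), without moderation (0.1) and with only the samples compared (0.0587, range 9.86e-05 to 0.1). Dropping vehicle replicate 1 gave -0.52 for CTGF, and dropping replicate 2 gave -1.45. BHLHE40, a repressor of the basic helix-loop-helix family, was at 94.0 and 63.1 RPKM with vehicle. After Dex it was at 44.6 and 47.3 RPKM at 2 h and at 34.7 and 34.9 RPKM at 4 h. At 2 h BHLHE40 fell by 0.74 (-0.74, adjusted p = 0.00936). Its call was lost without Dex 2 h replicate 1 (adjusted p = 0.0774), without the filter (0.0517), without moderation (0.0977) and with only the samples compared (0.0593, range 2.51e-05 to 0.0977), and its difference became -0.46 on dropping vehicle replicate 1 and -1.03 on dropping the other. CYR61, a relative of CTGF (0.87, adjusted p = 0.0428), and the receptor gene ACVR2B (-0.61, adjusted p = 0.039) passed after CpdA for 2 h near the threshold. CYR61 kept the call in 9 of 21 alternatives (adjusted p = 2.15e-05 to 0.229) and ACVR2B in 8 of 20 (adjusted p = 0.0174 to 0.244).

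**Figure D4:**
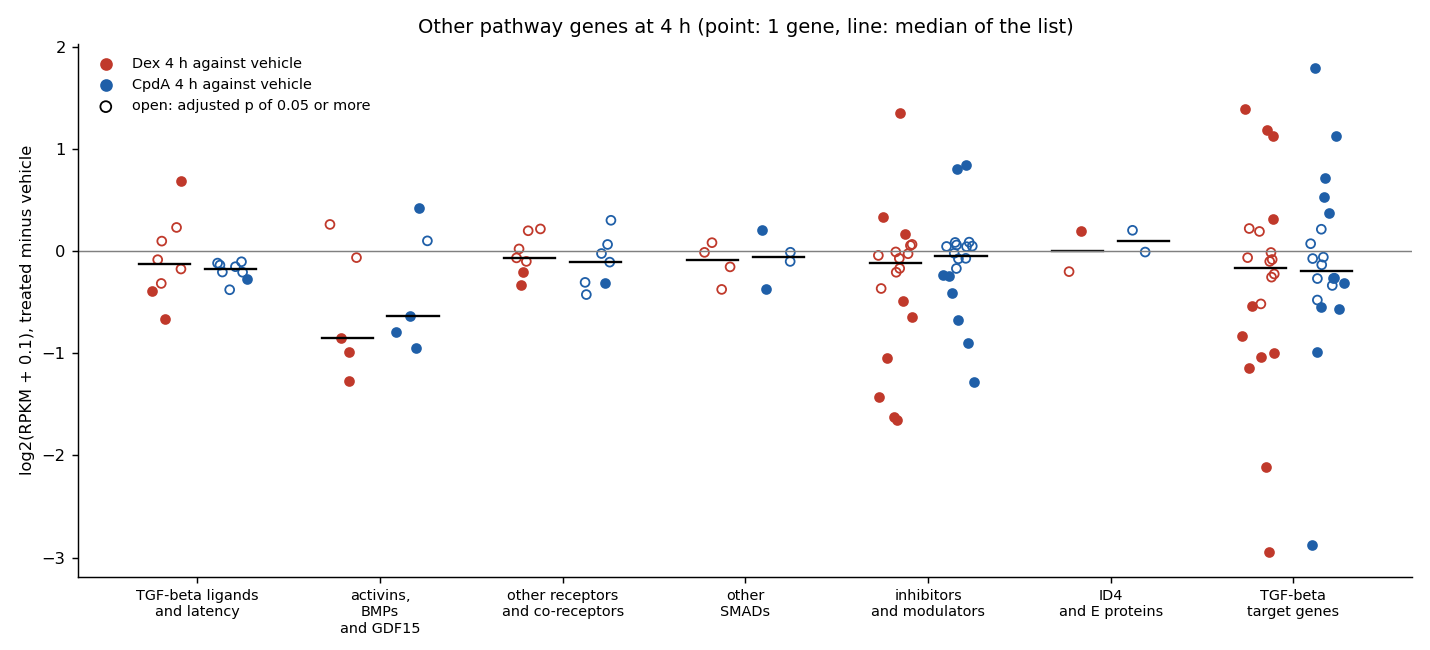
Difference from vehicle at 4 h (y axis, log2(RPKM + 0.1), treated minus vehicle) of the 64 other pathway genes, by list (x axis), for Dex and CpdA (points, 1 per gene, filled where the adjusted p was under 0.05, with the list median as a line). The list medians lie close to 0 except for activins, BMPs and GDF15 (-0.851 for Dex and -0.637 for CpdA), and the lowest point is IL11 after Dex (-2.95).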

How the data were processed

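RNA-seq was analysed from 10 samples, 2 in each of 5 groups, mapped to groups by their titles. The authors sequenced single-end reads of 50 bases from TruSeq libraries, aligned them with TopHat2 (2.0.13), estimated transcript abundance in Partek Genomics Suite (6.6) and deposited RPKM per gene symbol. Bowtie is also listed in the submitters' processing notes. How transcripts were joined into symbols, the lane of each sample and the read totals are not given in the sources used here, so no counting interval is given, and relative depth was read from low values. ChIP samples were not analysed here.

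Values were tested as log2(RPKM + 0.1) with limma (3.58.1, R 4.3.3), abundance trend on, in 1 model of 5 groups without covariates, after dropping genes that did not reach an RPKM of 0.5 in 2 samples. P-values were adjusted by Benjamini-Hochberg over 12713 genes, in 9 comparisons, and the script was tested on simulated data. The 10 genes are named in every comparison, with at most 5 rises and 5 falls of other pathway genes per comparison past an adjusted p of 0.05 and a fold of 1.5, the 3 genes most like each member, and a few others named after their values were seen. The genes, lists and motifs were chosen with earlier results of these data known, and support nothing by themselves. Tables of 21 alternatives were computed. Nothing says which culture each replicate came from beyond "biological", so p-values measure the spread between these samples. Replicate numbers are shared by all groups, but the deviations of same-numbered samples had correlations of -0.0568 to 0.198 over 10 pairs of groups, so the numbers were not taken to pair samples. Gene positions come from GENCODE 44 on GRCh37, and promoters from RefSeq on GRCh38.p14, which were matched by symbol for all 10 genes. CDKN2B is not analysed here. A target gene that the naming rule picks is not reported here.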

Additional observations from a re-analysis of the deposited data

Results flagged for a closer look

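The difference between Dex and CpdA changed between 2 h and 4 h, by the test of that change, for 5 of the 9 genes. On the log2(RPKM + 0.1) scale it moved upward by 1.72 for ID1, 1.24 for ID3 and 0.594 for TGFBR2, and downward for SMAD3 (-0.588) and TGFBR1 (-0.528).

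The difference from vehicle also changed between times within a ligand, as tested by 4 h against 2 h, in which the shared vehicle cancels. For Dex it moved by 1.2 for ID1, 0.673 for ID3 and 0.365 for TGFBR2, and by -0.574 for SMAD3 and -0.329 for TGFBR1. For CpdA it moved by -0.642 for SMAD7, -0.524 for ID1 and -0.23 for TGFBR2. The vehicle samples have no time point in their labels, so a change with time in culture alone was not tested.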

How the results depend on the processing

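Of 81 values of the 9 genes, 44 were called, and 27 of these kept the call in all 21 alternatives. Of 1701 alternative values, 66 lost a call and 53 gained one, and no called value changed sign. The number of genes called for CpdA at 4 h against 2 h was 3, but 1 without moderation of the variance and 6 with only the samples compared, and for the change of the ligand difference it was 5, but 3 without moderation. Leaving out each sample in turn gave 3 to 5 genes for Dex at 2 h against vehicle, 5 to 7 for Dex at 4 h, 2 to 4 for CpdA at 2 h, 3 to 8 for CpdA at 4 h, 3 to 8 for Dex against CpdA at 2 h, 6 to 9 at 4 h, 3 to 6 for Dex at 4 h against 2 h, 0 to 5 for CpdA at 4 h against 2 h and 4 to 6 for the change of the ligand difference, where a lone sample is assumed to vary like the other groups. The replicate number as a block changed no count by over 1.5 times: with the replicate block 4, 6, 3 and 7 genes were called against vehicle (Dex 2 h, Dex 4 h, CpdA 2 h, CpdA 4 h), 7 and 8 between ligands at 2 h and 4 h, 5 and 4 between times for Dex and CpdA and 5 for the change of the ligand difference. The gains under it were ID1 for Dex at 2 h (adjusted p = 0.0234) and CpdA at 4 h (0.0236), and ID3 for Dex at 4 h (0.0193), Dex against CpdA at 2 h (0.0144) and CpdA at 4 h against 2 h (0.0125). Of the other pathway genes called, the counts of 21 for Dex at 2 h, 18 for CpdA at 2 h and 27 for CpdA at 4 h were 12, 9 and 17 without moderation, and the count for CpdA at 2 h was 10 without the filter. The unknown read totals limit the low genes most, ID2 and ID3 among them.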
